A study of Homo sapiens with 17 samples.

Results

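A set of 10 genes of the SR family of splicing factors and their close relatives were followed through a short exposure of human cells to emetine: SRSF1, SRSF2, SRSF3, SRSF4, SRSF5, SRSF6, SRSF7, SRSF11, TRA2A and TRA2B. They were picked by gene symbol and make up 10 of the 19222 genes of the 1 h table and 10 of the 9982 genes of the 2 h tables. HEK-293T is a transformed line derived from human embryonic kidney, and emetine is a plant alkaloid that binds the small ribosomal subunit and stops translation elongation. The study used TimeLapse sequencing (TL-seq), in which cells are fed the uridine analog s4U before RNA is collected and chemical conversion makes RNA made in the meantime read as C at T positions.

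All libraries carried the WT genotype. In the 1 h experiment, 3 libraries were untreated and 3 received 1.8 µM emetine, all 6 with 500 µM s4U for 1 h, and 1 untreated and 1 emetine library received no s4U. In the 2 h experiment, 3 libraries were untreated, 3 received 1.8 µM emetine and 3 received 240 µM emetine, all with 250 µM s4U. A cell line passaged as a population limits what the groups stand for, and the labels do not say whether replicates were separate cultures, so p-values measure only the spread between these libraries.

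SR proteins bind exonic sequences of pre-mRNA through RNA recognition motifs and recruit the spliceosome through a domain rich in arginine and serine, the RS domain. Phosphorylation of that domain by SRPK and CLK kinases moves them between nuclear speckles, active genes and, for some, the cytoplasm. The family is known for limiting its own abundance: an SR protein in excess promotes splicing of its own transcript into a form with an early stop codon, which nonsense-mediated decay (NMD) removes during translation.

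The RS domain set the 10 coding sequences apart from other genes. Between 26.9% of codons (SRSF11) and 45.7% (SRSF2) coded for arginine or serine, against a median of 13.5% over 12744 protein-coding genes that were tested and annotated. Arginine next to serine occurred 8.26 to 23.5 times per 100 codons in the 10 genes, and 0.768 times in the median gene. Codon choice differed among the members, and it is shown for SRSF2 and SRSF11, which lie furthest apart, and for SRSF3 and SRSF7, on which later results turn. Each stretch is the 30 codons densest in such pairs within its gene. They are taken from GENCODE 44 transcripts on GRCh38, written 5′ to 3′ on the coding strand, with arginine codons in capitals. The SRSF2 stretch lies in exon 2 (chr17:76736359-76736448, minus strand), the SRSF3 stretch runs from exon 5 into exon 6 (chr6:36601715-36601971, plus strand), the SRSF7 stretch runs from exon 3 to exon 5 (chr2:38748151-38749536, minus strand) and the SRSF11 stretch from exon 7 into exon 8 (chr1:70239462-70244714, plus strand).
SRSF2: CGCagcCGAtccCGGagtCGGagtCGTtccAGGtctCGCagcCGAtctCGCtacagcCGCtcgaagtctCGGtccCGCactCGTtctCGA
SRSF3: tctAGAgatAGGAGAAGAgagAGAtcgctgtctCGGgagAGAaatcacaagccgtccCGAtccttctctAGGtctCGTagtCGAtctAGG
SRSF7: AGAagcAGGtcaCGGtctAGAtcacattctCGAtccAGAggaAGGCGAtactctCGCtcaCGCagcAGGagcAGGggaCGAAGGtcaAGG
SRSF11: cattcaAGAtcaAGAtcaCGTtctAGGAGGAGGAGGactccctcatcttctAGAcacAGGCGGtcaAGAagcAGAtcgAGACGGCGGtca
In the whole SRSF2 coding sequence 39.6% of arginine codons were CGC and 3.77% were AGA. In SRSF11 the order was turned, with 3.23% CGC and 43.5% AGA. G or C stood at the third codon position in 31.5% of SRSF7 codons and 77.8% of SRSF2 codons, and SRSF2 was the only member above the median gene (59.6%).

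Each of the 10 genes had at least 1 annotated NMD transcript, 24 in all, whereas 46.8% of the 12744 coding genes had any. For 4 of the genes an exon that carries the early stop of an NMD transcript is shown from its first base to the stop codon, which is in capitals, since such exons are the means of the self-limitation described above. These stretches are at chr6:36599821-36599854 (SRSF3, plus strand), chr20:43459153-43459304 (SRSF6, plus strand), chr7:23522289-23522432 (TRA2A, minus strand) and chr3:185931772-185931852 (TRA2B, minus strand).
SRSF3: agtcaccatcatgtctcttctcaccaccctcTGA
SRSF6: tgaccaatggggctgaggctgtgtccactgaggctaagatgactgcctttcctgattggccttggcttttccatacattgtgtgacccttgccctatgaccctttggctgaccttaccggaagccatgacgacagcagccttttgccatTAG
TRA2A: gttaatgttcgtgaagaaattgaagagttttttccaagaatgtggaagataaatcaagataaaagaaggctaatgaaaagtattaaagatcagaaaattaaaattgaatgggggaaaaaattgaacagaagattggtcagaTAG
TRA2B: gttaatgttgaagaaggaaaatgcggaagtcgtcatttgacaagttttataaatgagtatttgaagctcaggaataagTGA
The deposited reads were assigned to genes, so reads from these exons count together with those of the coding transcripts and every value below is a sum over both.

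The 8 libraries of the 1 h experiment held 22246279 to 40018063 reads assigned to genes, and each member had 2887 to 32477 reads per library. Markers of the line were present, with VIM at 505 to 637 CPM (reads scaled to library size) and NEFM at 141 to 217 CPM. NEFL had 102 to 123 CPM, LIN28B 49.8 to 93.4, KRT18 36.5 to 58.1 and KRT8 only 4.13 to 6.84. Among markers of other cell types, PTPRC, CD3E, HBB and UMOD had no read, and PECAM1, ALB and NPHS1 at most 10. COL1A1, listed as a fibroblast marker, had 19.4 to 27.5 CPM, above KRT8. Emetine replicate 3 stood apart. Its genes deviated from their emetine mean with an SD of 0.26 on the log2 scale. The SD was 0.14 and 0.16 in the other emetine libraries and 0.09 to 0.11 in untreated ones. The deviation of emetine replicate 3 followed transcript length with a Spearman rho of 0.763 across genes, against −0.690 and −0.688 in the other emetine libraries. Deviations from a group mean sum to 0 for each gene, so the opposite sign and those SDs are in part set by the centring. In pairwise comparison of counts, chi-square over degrees of freedom was 9.71 between emetine replicates 1 and 2. It was 70.0 and 90.0 between these libraries and emetine replicate 3. Results that rest on emetine replicate 3 are given with and without it.

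In untreated cells the SR transcripts were abundant. Per kilobase of transcript, SRSF2, a nuclear activator of exon inclusion, was highest at 410 ± 22.2 CPM (SD, n = 3), followed by SRSF5 at 208 ± 10.3, SRSF3 at 200 ± 3.38, SRSF7 at 188 ± 3.59, SRSF6 at 127 ± 6.23 and SRSF1 at 124 ± 4.01. TRA2B at 91.4 ± 0.851, SRSF4 at 87.9 ± 2.37, TRA2A at 74.2 ± 2.51 and SRSF11 at 36.7 ± 0.442 CPM per kilobase were lower. Neighbors in this order had separate ranges over the 3 libraries except SRSF5 and SRSF3, and SRSF6 and SRSF1. All 10 were above at least 81.9% of genes. In the 2 h experiment, the authors' mean of normalized counts was not divided by transcript length. It was highest for SRSF1 at 15398 and SRSF6 at 13059 and lowest for SRSF5 at 1911 and SRSF4 at 1584. Per kilobase, SRSF6 at 3000 and SRSF1 at 2882 were highest, and TRA2B at 1253 and SRSF4 at 689 lowest. These are pooled means over the libraries with no error, and the kit differed from that of the 1 h libraries.

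After 1 h of emetine, the estimated level changes of all 10 transcripts, relative to other genes after TMM scaling, lay in a narrow range. The log2 change ran from −0.13 (SRSF3) to 0.12 (SRSF11), adjusted p-values from 0.407 to 0.981 (edgeR quasi-likelihood test, Benjamini-Hochberg), and the 95% intervals from −0.37 at the lowest to 0.33 at the highest. No member passed the adjusted threshold of 0.05, where 2.64% of 13776 genes were called higher and 0.0436% lower, nor the stricter rule of a 2-fold change at 0.01, which 0.189% and 0.00726% of genes passed. At an unadjusted p under 0.05 there were 0 of 10 members in this edgeR fit and 0 of 10 by DESeq2, against 21.9% and 24.8% of all genes. Without emetine replicate 3 again no member passed the adjusted threshold, with 10.1% of genes called higher and 3.87% lower. With spike-in scaling the log2 change ran from 0.55 (SRSF3) to 0.81 (SRSF11), and the median gene was at 0.71. On simulated data the level test recovered 2.5% of genes changed by 0.5, so the lack of a call does not show unchanged levels. As these are bulk libraries, fewer cells with a transcript and less RNA per cell cannot be told apart.

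**Figure D1:**
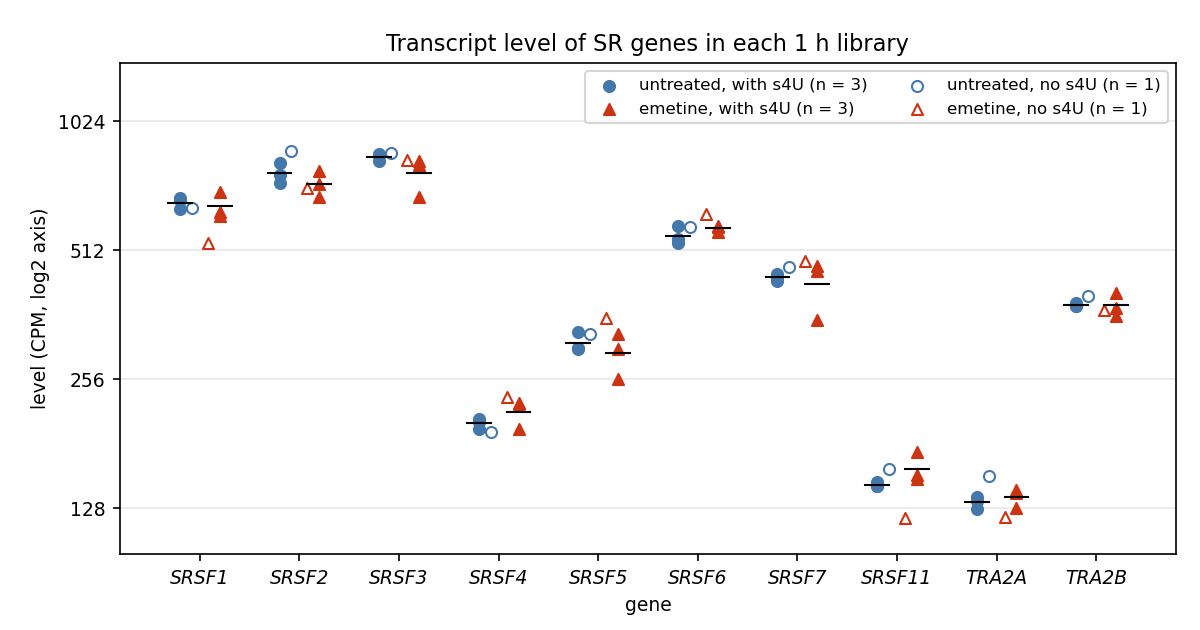
Level of each gene (CPM after TMM scaling over the 8 libraries, log2 axis) in the 1 h libraries; filled symbols are libraries with s4U, open symbols without, and bars are means of 3. Among libraries with s4U, emetine and untreated points overlap for 8 of 10 genes, and emetine replicate 3 is the low point of SRSF3 at 682 CPM and SRSF7 at 351 CPM.

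SRSF3, the smallest member, which also serves as an mRNA export adapter, measured 857, 829 and 848 CPM in the untreated libraries and 827, 811 and 682 CPM with emetine. All 3 emetine values lay below all untreated ones, which was so for 15.2% of genes, and the lowest came from emetine replicate 3. Without that library the log2 change was −0.040 (SE 0.058, edgeR adjusted p = 0.690).

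SRSF11, a less typical member, was the reverse case, at 147, 145 and 144 CPM in untreated libraries and 153, 150 and 173 CPM with emetine. Every emetine value was above every untreated value, as for 19.5% of genes, and again replicate 3 was the extreme. Without it the change was 0.062 (SE 0.055, edgeR adjusted p = 0.490). The exact permutation test gave p = 0.1 for SRSF3 and for SRSF11, the smallest value that 3 against 3 libraries allow.

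SRSF7, an export adapter like SRSF3 that also carries a zinc knuckle, had 435, 442 and 452 CPM untreated and 459, 470 and 351 CPM with emetine. The groups overlapped, and its log2 change of −0.054 (SE 0.12) became 0.072 (SE 0.055) without emetine replicate 3. SRSF4, which has a pair of RNA recognition motifs and a long RS domain, had 204, 196 and 207 CPM untreated and 224, 226 and 196 CPM with emetine. Its change of 0.091 (SE 0.092) became 0.16 (SE 0.055, edgeR adjusted p = 0.0662) without that library. The remaining 6 genes overlapped between groups. SRSF1, the founding member, averaged 662 ± 21.4 CPM untreated and 648 ± 45.9 with emetine, and TRA2B, an SR-like activator with RS domains on either side of its RNA recognition motif, 382 ± 3.56 and 381 ± 23.5 (SD, n = 3).

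Without s4U there was 1 library a group and no test. The log2 ratio of emetine to untreated ran from −0.38 for SRSF11 (158 and 122 CPM) to 0.27 for SRSF4 (193 and 233 CPM), with a median over all genes of −0.010. No member differed by more than 1.5-fold, against 4.46% of 10699 genes. TRA2A, the paralog of TRA2B, had 152 CPM untreated and 122 CPM with emetine.

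The fraction new, the share of a gene's reads that came from RNA made during the hour, was estimated from T-to-C conversions. Reads with 2 or more conversions made up 6.74% to 18.7% of the members' reads with s4U and 0.0135% to 0.401% without, so the background was low. In untreated cells the fraction new was highest for SRSF4 at 23.7% ± 3.65 and SRSF6 at 18.3% ± 2.30, and lowest for SRSF1 at 10.1% ± 1.83 and SRSF3 at 8.71% ± 1.31 (SD, n = 3). At steady state these values stand for half-lives of 2.56 h (SRSF4), 3.43 h (SRSF6), 6.54 h (SRSF1) and 7.60 h (SRSF3), and the median gene had 5.35 h. Over the 3 untreated libraries they ran from 2.28 to 3.18 h (SRSF4), 2.95 to 3.77 h (SRSF6), 5.40 to 7.86 h (SRSF1) and 6.51 to 8.89 h (SRSF3). In this order, 5 of 10 members were shorter-lived than the median gene, and the ranges of neighbors overlapped throughout. Within each of the 3 libraries, the fraction new was higher for SRSF4 than SRSF6 and for SRSF6 than SRSF2. The same held for TRA2B over SRSF5 and SRSF1 over SRSF3, and other neighbors kept their order in 2 libraries.

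**Figure D2:**
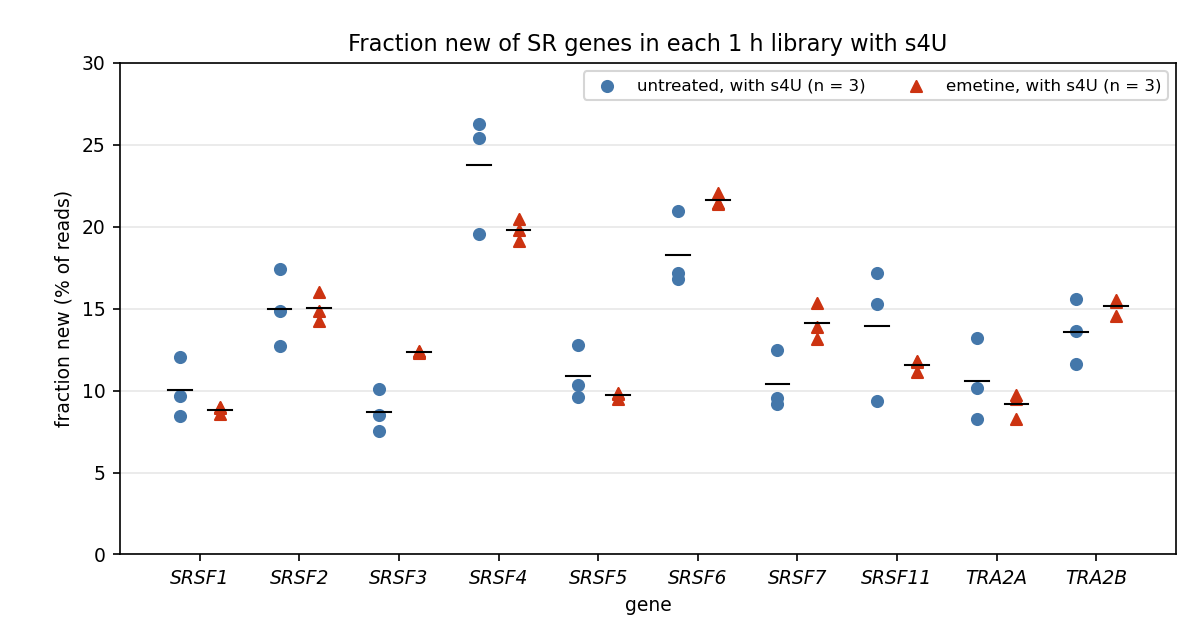
Fraction new (% of reads) of each gene in the 6 libraries with s4U; bars are means of 3. For SRSF3, SRSF6 and SRSF7 all emetine points lie above all untreated points, and the untreated points spread more widely than the emetine points for all 10 genes.

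With emetine, 3 of the members had a higher fraction new in every library than in any untreated one: SRSF3, SRSF6 and SRSF7, as did 2.19% of 10763 genes. SRSF3 measured 7.50%, 8.54% and 10.1% untreated and 12.4%, 12.3% and 12.4% with emetine. The emetine values were nearly identical, and the logit change was 0.40 (SE 0.21, limma adjusted p = 0.340). SRSF7 measured 9.16%, 9.52% and 12.5% untreated and 13.2%, 13.9% and 15.3% with emetine, a logit change of 0.36 (SE 0.21, limma adjusted p = 0.417). SRSF6 measured 17.2%, 16.8% and 20.9% untreated and 21.4%, 21.4% and 22.1% with emetine, a logit change of 0.21 (SE 0.21, limma adjusted p = 0.699). In this limma fit none of the 10 passed the adjusted threshold, where 0.214% of genes were called higher and 4.83% lower. None had an unadjusted p under 0.05 either, as 16.5% of all genes did.

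The untreated libraries differed in labeling as a whole. Their median fraction new over genes was 9.26%, 12.3% and 14.7% in replicates 1, 2 and 3, against 10.7%, 11.04% and 10.3% with emetine. When each library was centred on its median, SRSF3 rose by 0.52 (SE 0.093, limma adjusted p = 0.0182) and SRSF7 by 0.48 (SE 0.11, limma adjusted p = 0.0389), in a fit that called 1.17% of genes higher and 6.95% lower. With each value weighted by its number of reads, SRSF3 (0.41, SE 0.060, limma adjusted p = 0.00132), SRSF7 (0.37, SE 0.076, adjusted p = 0.0139) and SRSF6 (0.24, SE 0.055, adjusted p = 0.0248) passed, with 0.251% of genes called higher and 4.8% lower. The weighting assumes that spread falls with the number of reads, which does not cover the differences in labeling between whole libraries. The call for SRSF3, SRSF6 and SRSF7 depended on the fit, and their direction was the same in all fits of the fraction new that were run.

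The other 7 genes had no separate ranges. SRSF4 moved from 19.6%, 26.3% and 25.4% untreated to 20.5%, 19.8% and 19.1%, with the first untreated library inside the emetine range, and its logit change was −0.22 (SE 0.21, limma adjusted p = 0.682). SRSF11 moved from 9.35%, 15.3% and 17.2% to 11.8%, 11.7% and 11.1%, a change of −0.18 (SE 0.21, limma adjusted p = 0.762). SRSF2, at 15.0% ± 2.34 and 15.0% ± 0.890 (SD, n = 3), had the smallest difference. The median change over all genes was −0.16, and over the 10 members −0.056.

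**Figure D3:**
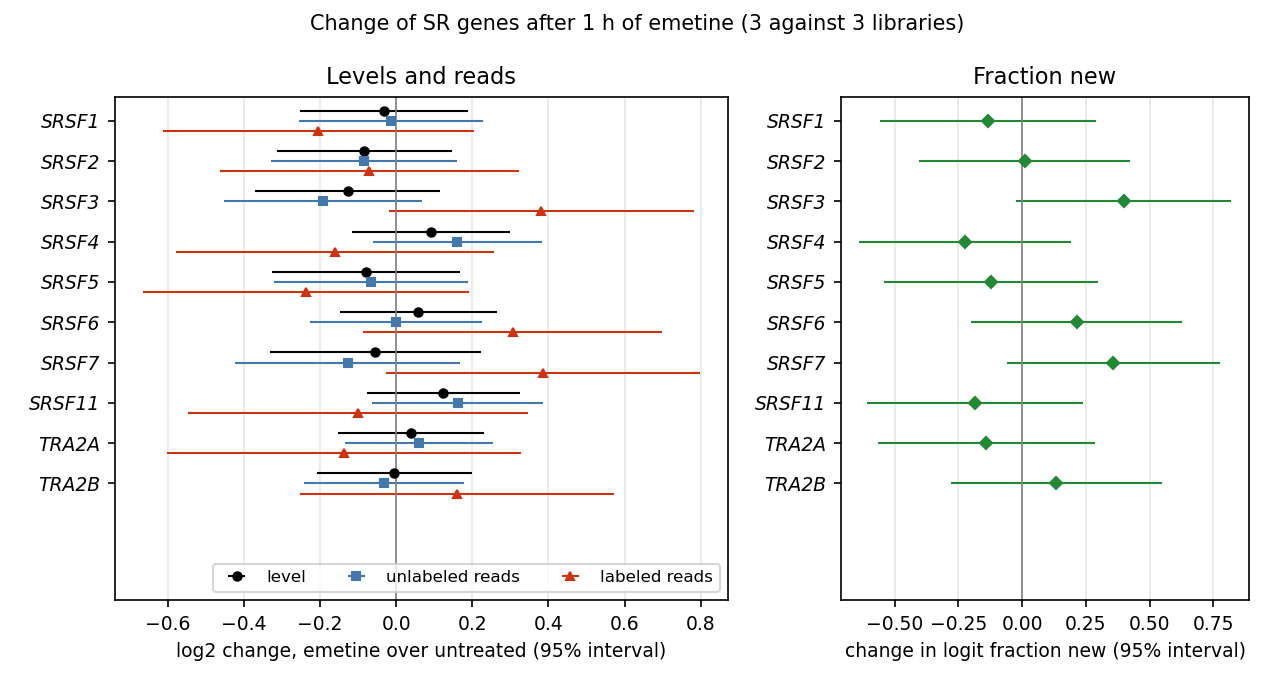
Estimated change with emetine, with 95% intervals from 3 against 3 libraries: log2 change of level, unlabeled and labeled reads (left) and change in logit fraction new (right). Every interval includes 0, and labeled reads are furthest to the right for SRSF3 (0.38), SRSF7 (0.39) and SRSF6 (0.31).

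Splitting the level into labeled reads (made during the hour) and unlabeled reads (made before) gave the highest estimates among the members for the labeled reads of these 3 genes. On the log2(CPM + 0.5) scale, labeled reads changed by 0.38 for SRSF3 (SE 0.20, limma adjusted p = 0.439), 0.39 for SRSF7 (SE 0.21, adjusted p = 0.454) and 0.31 for SRSF6 (SE 0.20, adjusted p = 0.574), and by −0.24 to 0.16 for the others. Unlabeled reads changed by −0.19 for SRSF3 (SE 0.12, limma adjusted p = 0.296), −0.13 for SRSF7 (SE 0.13, adjusted p = 0.528) and −0.00032 for SRSF6. No member was called by limma, where 0.26% of genes were higher and 0.632% lower in labeled reads and 7.3% higher and 0.0929% lower in unlabeled reads. At an unadjusted p under 0.05 there were 0 members for either kind of read, against 12.2% of all genes for labeled and 26.5% for unlabeled reads. Without emetine replicate 3, unlabeled SRSF4 rose by 0.23 (SE 0.066, limma adjusted p = 0.0327), with 13.4% of genes called higher and 3.01% lower.

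The share of reads that cross a splice junction differed between converted and unconverted reads in a gene-specific way. A read with more T positions can reach 2 conversions more readily, and the T content of junction and other reads was not compared. For SRSF5 the share among reads with 2 or more conversions minus that among reads with none was −20.3 ± 0.261 percentage points untreated and −17.2 ± 2.31 with emetine (SD, n = 3). SRSF7 was at −15.4 ± 1.86 and −17.7 ± 4.72 points, and SRSF11 at −9.88 ± 0.156 and −11.8 ± 2.26 points. The difference was below 0 in all 6 libraries for SRSF3, SRSF4, SRSF5, SRSF7, SRSF11 and TRA2B. The median of 4468 genes was also below 0, at −3.99 points. Of these genes, 3.96% were lower than SRSF5, 5.82% lower than SRSF7 and 17.1% lower than SRSF11. SRSF1 stood at the other end, with a share higher by 7.36 ± 0.0687 points untreated and 5.32 ± 1.26 with emetine, above 99.4% of genes.

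**Figure D4:**
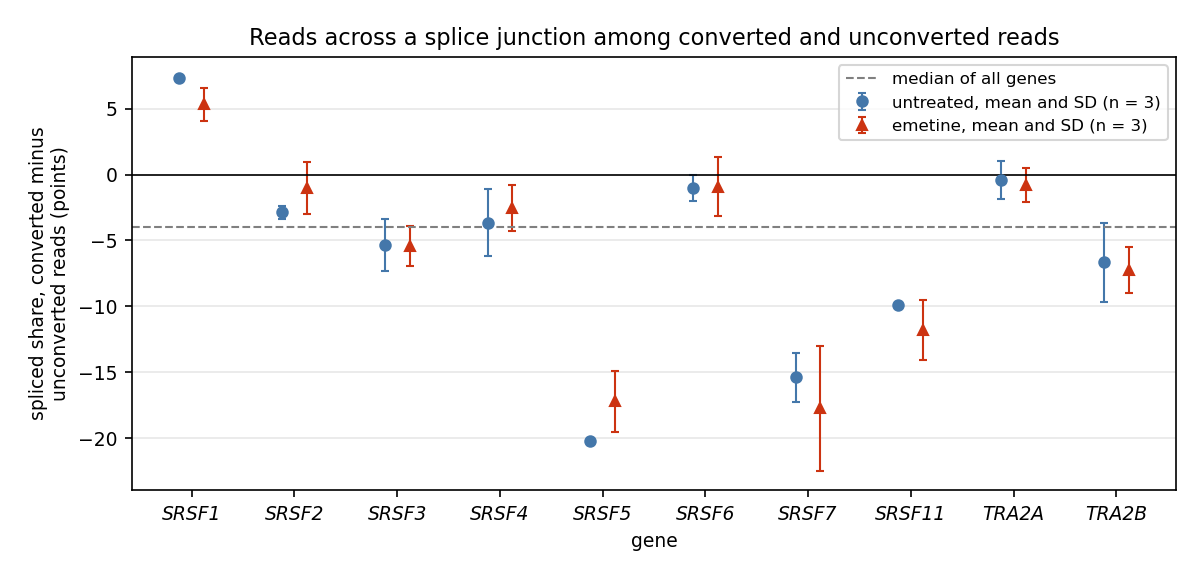
Share of reads across a splice junction among reads with 2 or more conversions minus that among reads with none (percentage points), mean and SD of 3 libraries; the dashed line is the median of 4468 genes at −3.99. SRSF3, SRSF5, SRSF7, SRSF11 and TRA2B lie below it and SRSF1 above 0 in both groups.

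Among 11 kinases, import receptors and phosphatases that act on SR proteins, 10 were tested. Of these, 2 were called higher for level, against 2.64% of all genes, and 2 lower for fraction new, against 4.83%. For unlabeled reads 5 were called higher by limma, against 7.3% of all genes. CLK4, a kinase of the RS domain, rose from 13.8 ± 1.42 to 21.1 ± 0.711 CPM (log2 change 0.62, edgeR adjusted p = 0.0325), and DYRK1A, a related kinase, from 30.2 ± 0.512 to 45.5 ± 6.42 CPM (0.59, edgeR adjusted p = 0.0345; SD, n = 3). The fraction new of CLK4 fell from 78.4% ± 6.85 to 54.2% ± 1.54 (limma adjusted p = 0.00238) and that of CLK1 from 87.7% ± 3.81 to 74.2% ± 3.45 (limma adjusted p = 0.0294). With single libraries left out, the edgeR adjusted p ran from 0.00173 to 0.174 for the level of CLK4 and 0.00057 to 0.178 for DYRK1A. Both were lowest without emetine replicate 3. For the fraction new the limma adjusted p ran from 0.00122 to 0.0605 for CLK4 and 0.00825 to 0.272 for CLK1. Of 26 other SR and SR-related proteins none was called by edgeR for level (2 at an unadjusted p under 0.05, against 21.9% of all genes, and 1 after adjustment by DESeq2, against 6.79%), and of 25 tested none by limma for fraction new (1 at an unadjusted p under 0.05, against 16.5% of all genes). Of 26 hnRNP and PTB proteins only PTBP2 was called for level, where 2.64% of all genes were called higher. It measured 35.7 ± 0.795 CPM untreated and 53.1 ± 1.07 with emetine (0.58, edgeR adjusted p = 0.0128, up to 0.108 with a library left out). Of 25 hnRNP and PTB proteins tested for fraction new, 0 were called, against 0.214% of genes higher and 4.83% lower.

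The mean profile of the 10 genes over the 8 libraries varied little, with an SD of 0.049 on the log2 scale. The genes most like it by Pearson r were SCARF2 (0.961), WBP5 (0.960), APITD1 (0.946), IER3IP1 (0.940) and SLC25A33 (0.940), out of 9584 candidates; these points share library composition and depth.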

How the data were processed

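The 1 h libraries were mapped by the authors to hg38 with a T-to-C aware aligner after adapter removal, and T positions and conversions were counted per read. The deposited table holds read counts without normalization, and all of its sample names were mapped. The 2 h signal values, the authors' mean of normalized counts over all 2 h libraries after spike-in scaling, were used as deposited. The 2 h tables also hold the authors' fold changes and p-values, which were not used.

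The members and gene lists were chosen with earlier results of these data known. Counts were summed per gene and compared with edgeR 4.0.16 (TMM, quasi-likelihood test) in R 4.3.3 keeping 13776 genes whose counts summed to over 100 across 6 libraries. The fraction new was the weight of a 2-component binomial mixture, fitted in Python 3.11.15 with numpy 2.4.6. Its background rate came from the library without s4U of the same treatment and its new-read rate was fitted per library. Its logit was bounded between 0.001 and 0.999 and compared with limma 3.58.1 (trend, robust) on the 10763 genes that reached 100 reads in every library with s4U. Labeled and unlabeled levels are CPM times the fraction new, or the rest, with 0.5 CPM added. Half-lives assume steady state. bakR, which the study used, was not run. Adjusted p-values are Benjamini-Hochberg over all genes tested. Named beyond the members were genes of the 3 lists past the adjusted threshold for level or fraction new, and the 5 genes most like the members' mean profile. Gene models came from GENCODE 44. SRSF2 shares 823 exonic bases with MFSD11 on the opposite strand. Alternatives were DESeq2 1.42.0, RLE factors, no count filter, spike-in scaling, removal of a length and GC trend (mgcv 1.9.3), other read minimums and pseudocounts, centring, weighting, a replicate block and leaving out each library. Tests were checked on simulated data. The edgeR level test recovered 2.5% of genes changed by 0.5 on the log2 scale and 84.5% of those changed by 1. The limma test of fraction new recovered 0% of genes changed by 0.5 in logit and 60% of those changed by 1. All main changes of the members were smaller than 0.5, so the lack of a call does not show that they were unchanged. Depth limits precision through counting: the counting SE of a member's fraction new was 0.171 to 0.745 percentage points per library, which covers counting error only.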

Additional observations from a re-analysis of the deposited data

Results flagged for a closer look

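The response of SRSF11 differed between libraries with and without s4U. Without s4U, the log2 ratio of emetine to untreated was −0.38 (1 library a group), while with s4U all 3 emetine libraries were above all 3 untreated ones. In an edgeR fit over all 8 libraries, chosen after seeing these values, the emetine by s4U interaction was 0.51 (SE 0.18, unadjusted p = 0.0194, adjusted p = 0.985). The groups without s4U hold 1 library each, so this error comes from the spread of the libraries with s4U alone and assumes that the lone libraries vary like them. No gene of 13776 passed the adjusted threshold in that edgeR fit (583 had an unadjusted p under 0.05).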

How the results depend on the processing

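No member was called for level under any alternative, for labeled reads under any alternative, or for fraction new except in 2 fits: 2 members were called higher when libraries were centred on their medians and 3 when genes were weighted by read counts. Leaving out 1 library at a time gave 0 to 1 members called higher for unlabeled reads, the 1 being SRSF4 without emetine replicate 3. Of the members' changes with emetine under the alternatives, 427 kept their direction and side of the threshold, 6 passed it and 47 changed sign, 19 of them under spike-in scaling, which moved all genes together.

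With spike-in scaling the median of all genes moved to 0.71 for level, 0.41 for labeled and 0.66 for unlabeled reads, and members lay from −0.15 to 0.10 around the first. On that scale levels that changed sign were 0.65 (SRSF1), 0.62 (SRSF2), 0.55 (SRSF3), 0.61 (SRSF5 and SRSF7) and 0.69 (TRA2B). The rest were 0.81 (SRSF11), 0.77 (SRSF4), 0.74 (SRSF6) and 0.72 (TRA2A). Labeled reads that changed sign were 0.42 (SRSF1), 0.55 (SRSF2), 0.46 (SRSF4), 0.38 (SRSF5), 0.51 (SRSF11) and 0.47 (TRA2A). The rest were 1.01 (SRSF3 and SRSF7), 0.93 (SRSF6) and 0.78 (TRA2B). Unlabeled reads that changed sign were 0.61 (SRSF1), 0.54 (SRSF2), 0.44 (SRSF3), 0.56 (SRSF5), 0.63 (SRSF6), 0.50 (SRSF7) and 0.59 (TRA2B). The rest were 0.79 (SRSF4 and SRSF11) and 0.69 (TRA2A). SEs were 0.44 to 0.47. Intervals included no change except for labeled SRSF3, SRSF6 and SRSF7, which missed the adjusted threshold. Spike-in reads ran from 120560 to 325443, both in the emetine group. With the length and GC trend removed, levels were 0.029 (SRSF2), 0.032 (SRSF5) and −0.066 (SRSF6), and with the replicate block added 0.029, 0.032 and −0.070. The fraction new change was 0.0043 for SRSF5 after centring and −0.042 for SRSF2 as the share of reads with 2 or more conversions. The cause of these changes was not tested.

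Leaving out 1 library gave level changes from −0.086 to 0.0027 (SRSF1), −0.16 to 0.015 (SRSF5), −0.13 to 0.072 (SRSF7) and −0.053 to 0.039 (TRA2B), fraction new changes from −0.081 to 0.10 (SRSF2), labeled changes from −0.19 to 0.085 (SRSF2), −0.35 to 0.063 (SRSF11) and −0.32 to 0.055 (TRA2A), and unlabeled changes from −0.065 to 0.022 (SRSF1), −0.14 to 0.033 (SRSF5), −0.052 to 0.049 (SRSF6), −0.21 to 0.020 (SRSF7) and −0.078 to 0.0067 (TRA2B).

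Counts over all genes moved more. For level, 363 genes were higher and 6 lower; DESeq2 gave 796 and 140, spike-in scaling 60 and 0, removal of the length and GC trend 984 and 193, the replicate block 75 and 3, both together 665 and 93, and leaving out 1 library 4 to 1367 and 0 to 525, the highest without emetine replicate 3. For fraction new, 23 were higher and 520 lower; a minimum of 50 reads gave 14 and 298, of 500 reads 14 and 227, centring 126 higher, the replicate block 40 higher, and leaving out 1 library 10 to 41 and 94 to 2524. For labeled reads, 28 and 68 became 10 and 0 with spike-in scaling and 13 to 64 and 2 to 1737 with 1 library left out; for unlabeled reads, 786 and 10 became 386 and 0 with spike-in scaling, 225 and 4 with a minimum of 500 reads, 350 higher with the replicate block, and 271 to 1444 and 4 to 324 with 1 library left out. Same-numbered libraries did not deviate together (r = 0.060, −0.025 and −0.19 across genes for level). These correlations cannot settle whether same-numbered libraries were handled together, which the labels do not say. The replicate block changed no member's call.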
